A study of Homo sapiens with 24 samples.

Results

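A set of 10 genes for RNA-binding proteins was followed across all 24 libraries of a study of 3 acute myeloid leukaemia (AML) lines. They are IGF2BP1, IGF2BP2, IGF2BP3, MBNL1, MBNL2, MBNL3, MSI2, CPEB2, CPEB4 and LIN28B, and they make up 10 of the 25680 genes in each table. The genes were chosen by name, with earlier results of these data known. Libraries of polyA RNA were read as pairs of 50 bp, with 3 libraries in each of 8 groups. In MV411 the groups are DMSO alone, MI-503 (3 days at 2.5 µM), AC220 (24 h at 3 nM), and both drugs at those doses and times. How long the MV411 controls were kept in DMSO is not given in the sources used here. In MOLM13 and OCI-AML3 they are 4 days of DMSO and 4 days of MI-503 at 2.5 µM. MI-503 blocks the contact between menin and the MLL protein, and AC220 (quizartinib) inhibits the FLT3 kinase. As background, MV411 carries an MLL-AF4 fusion and MOLM13 an MLL-AF9 fusion, both with an internal tandem duplication of FLT3, whereas OCI-AML3 has an NPM1 mutation but lacks an MLL fusion. Each line stands for 1 genotype, so fusion, line, treatment time and table cannot be told apart in any difference between lines. The triplicates are called biological, but how their cultures were separated is not given in the sources used here, so p-values measure the spread between these samples. In bulk RNA, fewer cells of a kind and less RNA per cell cannot be told apart.

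RNA-binding proteins set how long an mRNA lasts, how it is spliced and how much protein it yields. IGF2BP proteins bind mRNAs, many of them marked by N6-methyladenosine, and protect them from decay. LIN28B blocks the maturation of let-7 microRNAs, MBNL proteins (muscleblind) steer alternative splicing and mRNA localisation, MSI2 (Musashi) controls translation in blood stem and leukaemia cells, and CPEB proteins regulate the poly(A) tail through the cytoplasmic polyadenylation element. MLL fusion proteins act through menin on a limited set of genes, among them the HOXA cluster and MEIS1.

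Per kilobase of exon, MBNL1 was the highest of the 10 genes in every group. In MV411 with DMSO it stood at 94.1 ± 8.45 RPKM (SD, n = 3), the reads per kilobase of exon after scaling all library totals alike, followed by IGF2BP2 at 39.2 ± 0.231, CPEB2 at 9.80 ± 0.458 and IGF2BP1 at 7.55 ± 0.237. CPEB4, MBNL3 and MSI2 lay between 2.32 and 3.44 RPKM. MBNL2 and LIN28B had no read in the DMSO libraries of MV411, and IGF2BP3 stood at 0.0756 ± 0.0203. In MOLM13 and OCI-AML3 the second place also went to IGF2BP2, at 32.4 ± 0.312 and 31.7 ± 0.451, and the next to IGF2BP3, at 14.6 ± 0.320 and 15.4 ± 0.307. Exon lengths were taken from GENCODE v29 and run from 3.83 kb for IGF2BP2 to 11.84 kb for MBNL3.

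**Figure D1:**
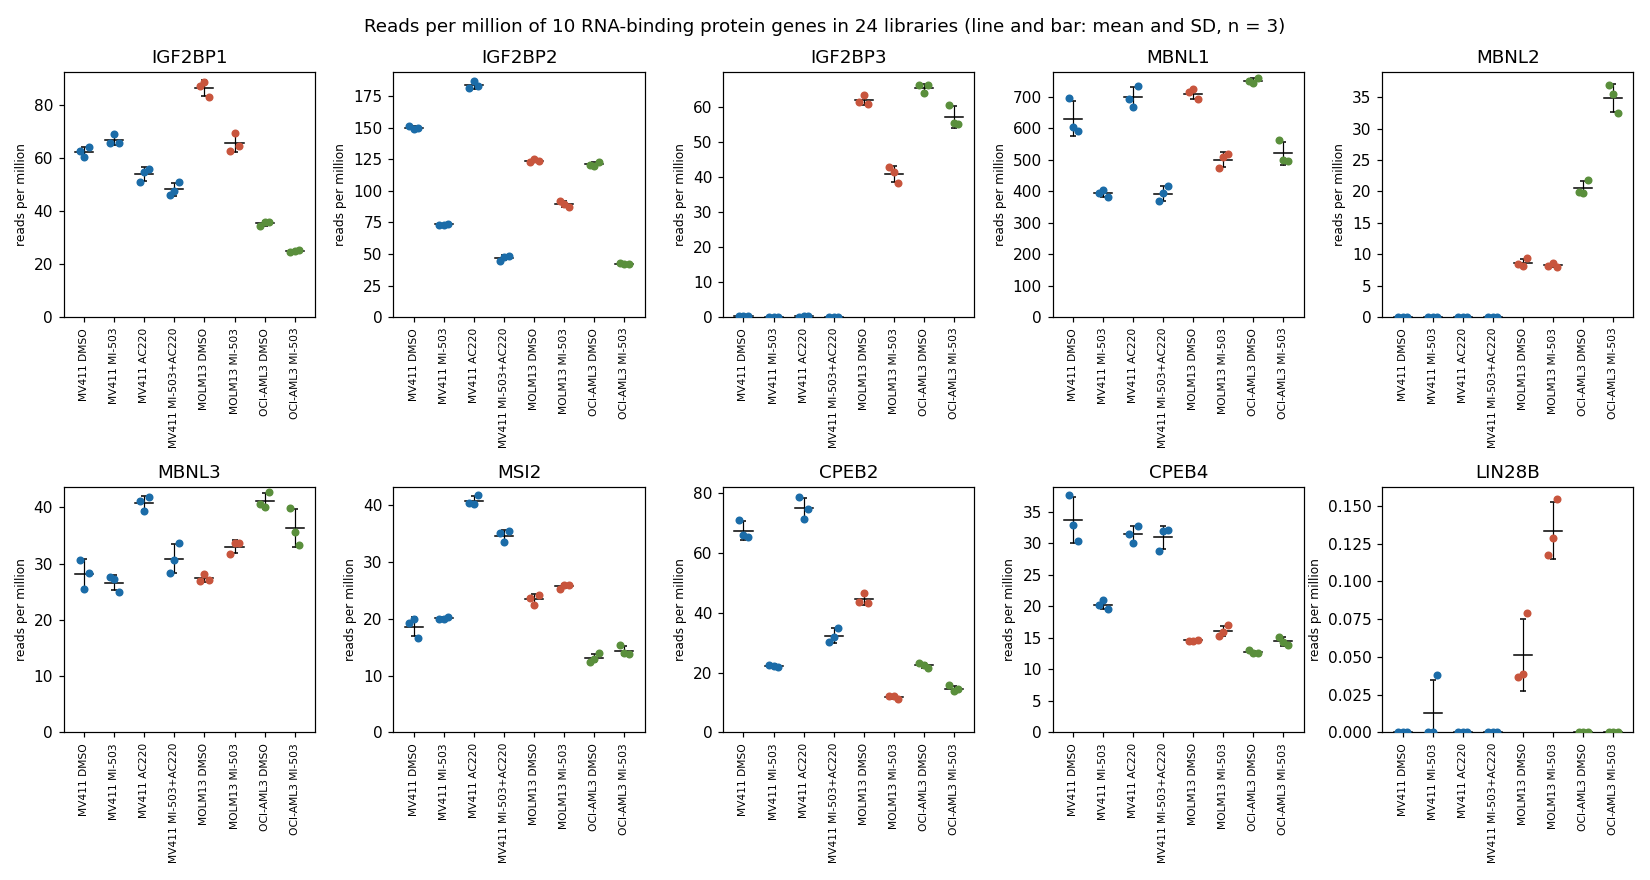
Reads scaled to equal library totals (RPM, y axis, linear, each panel with its own range from 0) of the 10 genes in each of 24 libraries, grouped by line and treatment (x axis). Points are libraries, and the line and bar are the mean and SD of 3. IGF2BP2 and CPEB2 are lower with MI-503 in each line, MSI2 is high in both MV411 groups with AC220, and IGF2BP3 and MBNL2 are close to 0 in all 12 MV411 libraries.

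With MI-503, IGF2BP2, MBNL1 and CPEB2 fell in all 3 lines. In MV411, 4 of the 7 genes tested changed and all 4 fell, namely IGF2BP2, MBNL1, CPEB2 and CPEB4. Of all genes tested there, 60.6% changed at an adjusted p under 0.05 (limma, Benjamini-Hochberg) with 29.8% higher and 30.8% lower. In MOLM13, 5 of 9 fell (IGF2BP1, IGF2BP2, IGF2BP3, MBNL1 and CPEB2) and 2 rose (MBNL3 and MSI2), against 59.9% of all genes changed (29.9% in each direction). In OCI-AML3, 6 of 9 fell (IGF2BP1, IGF2BP2, IGF2BP3, MBNL1, MBNL3 and CPEB2) and 2 rose (MBNL2 and CPEB4), against 65.6% of all genes (32.9% higher and 32.8% lower). The medians over the 7, 9 and 9 members tested were -0.68, -0.39 and -0.25 on the log2 scale in MV411, MOLM13 and OCI-AML3, where the medians over all genes were -0.01, -0.01 and 0.00. At least 2-fold in addition were IGF2BP2 and CPEB2 in MV411 (8.61% of all genes), CPEB2 in MOLM13 (7.06%) and IGF2BP2 in OCI-AML3 (7.1%). A gene was tested where 3 or more libraries of a table reached 10 normalised reads, which left out IGF2BP3, MBNL2 and LIN28B in MV411 and LIN28B in the other lines.

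All fold changes are on a scale of reads divided by the median-of-ratios factor of each library within its table, called normalised reads, so they are relative to the median gene. The deposited MV411 values are on that scale already. All 3 tables are named for the ERCC spike-in, as are the MV411 and OCI-AML3 columns but not the MOLM13 ones. The deposited MOLM13 and OCI-AML3 values carry other factors. On them the median of all genes moved with MI-503 by -0.54 and -0.16 on the log2 scale. There the MOLM13 changes of MBNL3, MSI2 and CPEB4 turned negative, at -0.26, -0.39 and -0.39. Those of CPEB4 and MSI2 in OCI-AML3 became -0.031 and -0.081. A difference between MV411 and another line on the deposited scale therefore sets a median-centred change against one that is not centred. IGF2BP2, MBNL1 and CPEB2 were lower with MI-503 in each line on both scales.

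**Figure D2:**
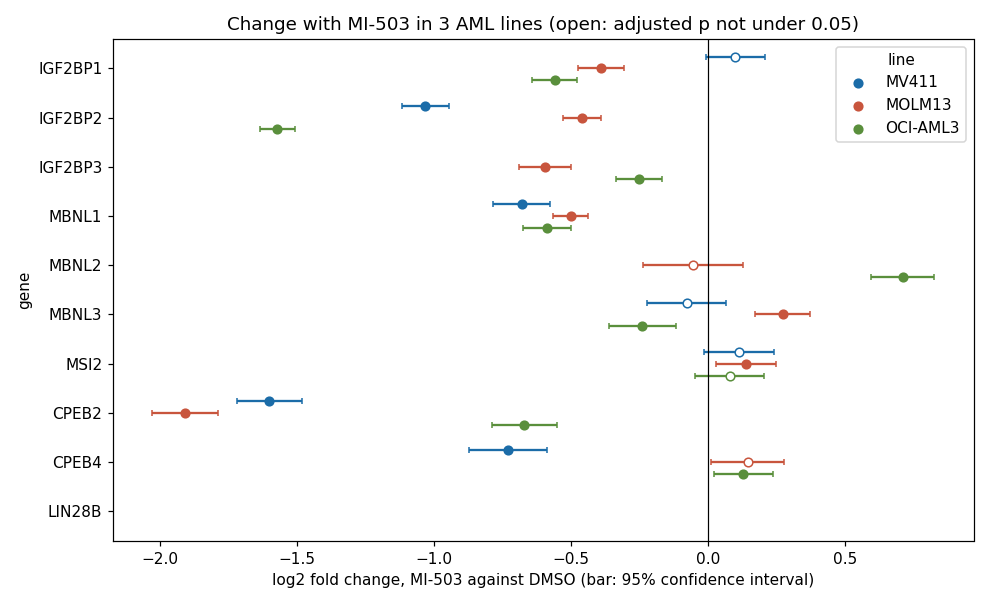
Log2 fold change of each gene with MI-503 against DMSO (x axis) in MV411, MOLM13 and OCI-AML3, with 95% confidence intervals from limma on 3 libraries per group. Filled points passed an adjusted p of 0.05 and open points did not, and genes below the filter have no point. IGF2BP2, MBNL1 and CPEB2 lie left of 0 in all 3 lines. MBNL3, MSI2 and CPEB4 of MOLM13 and MSI2 and CPEB4 of OCI-AML3 lie right of 0 here and left of 0 on the deposited scale.

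IGF2BP2 lies on chromosome 3 (185643130 to 185825042, RefSeq GRCh38.p14). In the MV411 controls it had 3815, 3769 and 3871 normalised reads, and in MI-503 libraries 1856, 1868 and 1874. AC220 libraries had 4531, 4701 and 4565, and with both drugs 1166, 1234 and 1235. The 4 groups did not overlap, AC220 being the highest and the combination the lowest. MI-503 lowered IGF2BP2 by 2.05-fold (log2 -1.03, SE 0.04, adjusted p = 8.06e-16, limma), AC220 raised it 1.20-fold (log2 0.27, SE 0.04, adjusted p = 3.66e-06), and the combination lowered it 3.15-fold (log2 -1.66, SE 0.04, adjusted p = 1.61e-20). The combination was also lower than MI-503 alone, by a log2 of -0.62.

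IGF2BP2 also fell in the other lines. In MOLM13, IGF2BP2 went from 3116, 3175 and 3144 normalised reads to 2361, 2288 and 2204 (log2 -0.46, SE 0.03, adjusted p = 2.71e-09). In OCI-AML3 it went from 7314, 7273 and 7447 to 2505, 2441 and 2465, which is 2.97-fold lower (log2 -1.57, SE 0.03, adjusted p = 7.25e-13). All 3 treated libraries lay under all 3 controls in both lines. Over the 8 groups, the order of RPM (reads scaled to equal library totals) ran from MV411 with AC220 (184) through the 3 DMSO groups (150, 124 and 121) to OCI-AML3 with MI-503 (42.4), and no neighbours in that order overlapped.

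The promoters of IGF2BP2, MBNL1 and CPEB2, which fell in every line, are shown because MLL holds a CXXC domain known to bind unmethylated CpG sites. Windows of 300 bases around 35116 starts in RefSeq GRCh38.p14 had a median of 14 CpG dinucleotides (the motif CG, which reads the same on both strands). 9 of the 10 genes had an entry, and IGF2BP1 did not. One IGF2BP2 start had 38 CpG in its window, a number reached by 9.91% of all windows, and its other start had 3. The CPEB2 window had 51, reached by 1.01% of all windows. The 3 MBNL1 windows had 31, 19 and 5. Of the other members, IGF2BP3 had 17, LIN28B 37 and 8, MSI2 15 and 34, and CPEB4 20. MBNL2 had 4 and 5, and MBNL3 7, 2, 17 and 16. The windows of the genes that fell in every line thus run from 3 to 51 CpG, and LIN28B, barely read in any line, had a window of 37. Below are the 250 bases upstream of 1 start each, read 5′ to 3′ on the gene's strand, with CpG in capitals. For MBNL1 this is the start with 5 CpG, since the windows of its other starts lie largely in exons. CPEB2 lies at chr4:15002231-15002480 on the plus strand, IGF2BP2 at chr3:185825043-185825292 on the minus strand and MBNL1 at chr3:152298764-152299013 on the plus strand.
CPEB2: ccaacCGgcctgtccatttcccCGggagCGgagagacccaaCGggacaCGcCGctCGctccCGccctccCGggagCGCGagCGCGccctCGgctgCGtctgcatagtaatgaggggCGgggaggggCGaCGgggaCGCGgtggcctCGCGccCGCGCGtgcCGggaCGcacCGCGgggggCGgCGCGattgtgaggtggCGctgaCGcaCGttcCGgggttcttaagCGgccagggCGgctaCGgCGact
IGF2BP2: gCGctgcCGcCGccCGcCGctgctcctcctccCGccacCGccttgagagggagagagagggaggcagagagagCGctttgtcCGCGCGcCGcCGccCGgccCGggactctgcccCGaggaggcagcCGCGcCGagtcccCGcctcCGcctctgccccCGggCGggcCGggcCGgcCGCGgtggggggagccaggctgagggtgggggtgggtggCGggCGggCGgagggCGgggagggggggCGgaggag
MBNL1: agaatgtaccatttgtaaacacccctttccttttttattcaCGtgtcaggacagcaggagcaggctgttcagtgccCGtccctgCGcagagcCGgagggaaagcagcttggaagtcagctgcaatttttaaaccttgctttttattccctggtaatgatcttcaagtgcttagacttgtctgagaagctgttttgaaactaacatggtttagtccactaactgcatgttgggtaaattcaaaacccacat
The printed stretches hold 40, 32 and 4 CpG. These counts describe the sequence, and neither methylation nor binding was measured.

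IGF2BP1, a close relative that is also an mRNA-stabilising protein, lies on chromosome 17 (48996558 to 49056145). The MV411 controls had 1584, 1525 and 1658 normalised reads, and MI-503 libraries 1667, 1765 and 1675. These groups did not overlap, but the difference did not pass (log2 0.10, 95% interval -0.01 to 0.21, adjusted p = 0.102). AC220 gave 1279, 1380 and 1398, and both drugs 1207, 1236 and 1301, with all 6 libraries under the controls. IGF2BP1 fell by 0.23 on the log2 scale with AC220 (adjusted p = 3.23e-04) and by 0.35 with the combination (adjusted p = 1.75e-06). With MI-503 it fell in MOLM13 from 2209, 2254 and 2125 to 1611, 1770 and 1641 (log2 -0.39, SE 0.04, adjusted p = 2.72e-07). In OCI-AML3 it fell from 2074, 2191 and 2166 to 1433, 1451 and 1476 (log2 -0.56, SE 0.04, adjusted p = 7.12e-08), and it stood at -0.72 on the deposited scale with a wider error (SE 0.27, adjusted p = 0.0634).

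IGF2BP3, on chromosome 7 (23310209 to 23470491), separated the lines. It is known as a stabiliser of oncogenic mRNAs in MLL-rearranged leukaemia. The 3 MV411 control libraries held 9, 10 and 6 reads, and 54 reads fell on it in all 12 MV411 libraries. MI-503 libraries of MV411 held 4, 1 and 3 reads, and the ratio of summed reads was 0.322 with a 95% exact interval of 0.126 to 0.737 that covers counting error only. For AC220 the ratio was 0.552 (0.266 to 1.10), and for the combination 0.302 (0.110 to 0.719). The MOLM13 controls had 1554, 1609 and 1554 normalised reads, and MI-503 libraries 1097, 1052 and 973.3 (log2 -0.60, SE 0.04, adjusted p = 5.93e-09). In OCI-AML3 they went from 4003, 3878 and 3998 to 3522, 3240 and 3222 (log2 -0.25, SE 0.04, adjusted p = 9.08e-05). On the deposited scale the OCI-AML3 value was -0.41 with an adjusted p of 0.406.

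LIN28B, on chromosome 6 (104937026 to 105083332), was barely read in any line. MV411 had 1 read in 12 libraries, and OCI-AML3 had none in 361696179 reads, which allows up to 0.00829 RPM (3 reads). The MOLM13 controls had 1, 1 and 2 reads and MI-503 libraries 3, 3 and 4, a ratio of 2.63 with a 95% exact interval of 0.759 to 11.5. LIN28B is known for blocking let-7, and IGF2BP1, IGF2BP2 and IGF2BP3 are among the described targets of let-7. The mature let-7a-5p (RefSeq, GRCh38.p14) is printed with its seed, bases 2 to 8, in capitals. It shares that seed with the other 8 human let-7 and miR-98 5p entries in the RefSeq table.
let-7a-5p: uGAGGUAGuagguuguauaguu
The DNA match to the seed, CTACCTC on the transcript strand, occurred in the longest GENCODE v29 3′ UTR of 5 of the 10 genes, and in 9.61% of 19038 genes with such a UTR. IGF2BP1 and LIN28B had 4 matches each, and IGF2BP2, IGF2BP3 and CPEB2 had 1 each. No match was found in MBNL1, MBNL2, MBNL3, MSI2 or CPEB4. Longer UTRs have more room for a match, and these 10 range from 1792 bases for IGF2BP2 to 10349 for MBNL3. The members were chosen by name and include described let-7 targets, so these counts are a description and not a test. For the IGF2BP family 1 stretch of 22 bases each is given, with the match in capitals, at chr17:49051062-49051083 (IGF2BP1, plus strand), chr3:185644220-185644241 (IGF2BP2, minus strand) and chr7:23311795-23311816 (IGF2BP3, minus strand).
IGF2BP1: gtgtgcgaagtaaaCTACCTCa
IGF2BP2: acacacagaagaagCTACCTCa
IGF2BP3: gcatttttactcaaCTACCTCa

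The order of RPM over the 8 groups differed between the other members. IGF2BP1 ran from 86.5 in the MOLM13 controls to 24.9 in OCI-AML3 with MI-503, and MV411 with MI-503 (67.0), MOLM13 with MI-503 (65.7) and the MV411 controls (62.4) overlapped as neighbours. IGF2BP3 stood at 65.3 and 62.0 in the OCI-AML3 and MOLM13 controls and at 0.0941 to 0.321 in the 4 MV411 groups. MBNL1 ran from 751 in the OCI-AML3 controls to 393 in the MV411 groups with MI-503 and with both drugs, which overlapped. MBNL2 was highest in OCI-AML3 with MI-503 (34.9), then in its controls (20.5), and stood at 8.64 and 8.27 in the 2 overlapping MOLM13 groups. MBNL3 ran from 41.1 in the OCI-AML3 controls to 26.6 in MV411 with MI-503, and each group overlapped the next. MSI2 ran from 40.8 in MV411 with AC220 to 13.1 in the OCI-AML3 controls, and the 2 OCI-AML3 groups alone overlapped as neighbours. CPEB2 ran from 74.9 in MV411 with AC220 to 11.8 in MOLM13 with MI-503, where the OCI-AML3 controls (22.4) overlapped MV411 with MI-503 (22.2). CPEB4 was at 30.9 to 33.7 in 3 overlapping MV411 groups, at 20.2 in MV411 with MI-503, and at 12.7 to 16.1 in the other lines. RPM levels were set across 3 separate tables, so differences between lines are descriptions.

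The make-up of the IGF2BP family per kilobase differed between lines and groups. IGF2BP2 made up 83.7% ± 0.350 (SD, n = 3) of family reads per kilobase in the MV411 controls and 70.3% ± 0.616 in MI-503 libraries. The share was 88.0% ± 0.451 in AC220 libraries and 67.7% ± 0.583 in those with both drugs. The family total went from 46.8 ± 0.399 with DMSO to 27.3 ± 0.189 with MI-503 and 18.1 ± 0.789 RPKM with both drugs. In MOLM13 the IGF2BP2 share was 56.4% ± 0.446 and 57.2% ± 0.644 without and with MI-503. In OCI-AML3 it was 61.7% ± 0.118 and 40.3% ± 0.649, and with MI-503 IGF2BP3 held the largest share there, at 48.8% ± 1.09. These shares are given as descriptions, without a test.

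**Figure D3:**
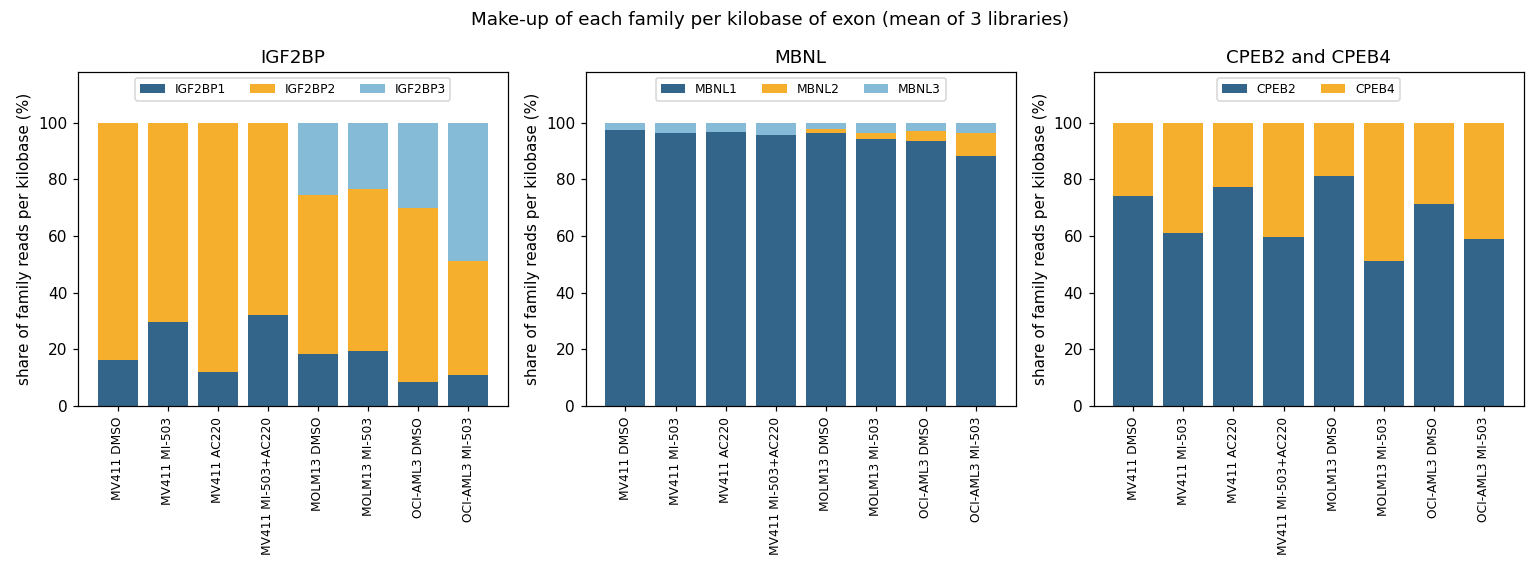
Share of each gene in the reads per kilobase of its family (y axis, percent, mean of 3 libraries) in the 8 groups (x axis), for the IGF2BP genes, the MBNL genes, and CPEB2 with CPEB4. IGF2BP2 leads in all groups but OCI-AML3 with MI-503, MBNL1 holds 88.3% to 97.5% of its family, and the CPEB4 share is higher with MI-503 than with DMSO in each line.

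MBNL1, the main muscleblind gene of blood cells, lies on chromosome 3 (152243632 to 152465780). The MV411 controls had 17571, 15273 and 15257 normalised reads. MI-503 libraries had 10003, 10260.0 and 9693, and those with both drugs 9646, 10185 and 10613. The libraries with MI-503, alone or combined, lay under all controls, and the combination did not differ detectably from MI-503 alone (log2 0.02, 95% interval -0.08 to 0.13, adjusted p = 0.702). MBNL1 fell 1.60-fold with MI-503 (log2 -0.68, SE 0.05, adjusted p = 4.28e-11) and 1.58-fold with the combination (adjusted p = 1.83e-11). With AC220 it had 17300, 16776 and 18345 reads, overlapping the controls (log2 0.13, adjusted p = 0.0269). That AC220 call did not hold without DMSO replicate 2 or 3 or AC220 replicate 3 (adjusted p = 0.135, 0.140 and 0.143), without a filter (0.0549) or without the variance trend (0.100). In MOLM13 the reads went from 18054, 18331 and 17650 to 12112, 12960 and 13103 (log2 -0.50, SE 0.03, adjusted p = 3.03e-10), and in OCI-AML3 from 45389, 45144 and 45951 to 32746, 29085 and 29050 (log2 -0.59, SE 0.04, adjusted p = 8.71e-08). All treated libraries were under all controls in both.

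MBNL2, on chromosome 13 (97141834 to 97394120), had 1 read in the 12 MV411 libraries, which together held 307184184 reads. The MOLM13 controls had 211.8, 208.0 and 237.8 normalised reads, and MI-503 libraries 207.6, 220.8 and 203.5. These groups overlapped (log2 -0.06, 95% interval -0.24 to 0.13, adjusted p = 0.598), and on the deposited scale the value was -0.59 (adjusted p = 4.08e-06). In OCI-AML3, MBNL2 rose 1.64-fold from 1207, 1203 and 1320 to 2141, 2069 and 1897 (log2 0.71, SE 0.05, adjusted p = 1.83e-07), with every treated library above every control. On the deposited scale this rise was 0.55 with an adjusted p of 0.205. Its share of MBNL reads per kilobase in OCI-AML3 was 3.53% ± 0.149 with DMSO and 8.20% ± 0.367 with MI-503.

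MBNL3, on the X chromosome (132369320 to 132490035), responded to AC220 in MV411. Its DMSO libraries had 774.6, 643.4 and 729.8 normalised reads, against 1031, 989.8 and 1043 with AC220, and 741.0, 795.5 and 858.7 with both drugs. All 3 AC220 libraries lay above the other 9 of this line, and MBNL3 rose 1.43-fold (log2 0.52, SE 0.07, adjusted p = 4.39e-07). With MI-503 it had 696.7, 695.6 and 636.8 reads, overlapping the controls (log2 -0.08, adjusted p = 0.338). The combination rose by 0.16 over DMSO (adjusted p = 0.0403), a call lost without DMSO replicate 2 (0.282), DMSO replicate 3 (0.0531), combination replicate 2 (0.0762) or combination replicate 3 (0.192), and also without a filter (0.0553), without the trend (0.0803), with equal totals (0.0906) and with only the 2 groups fitted (0.0662). In MOLM13 it rose with MI-503 from 682.6, 714.3 and 691.4 to 811.3, 858.1 and 853.0 (log2 0.27, SE 0.05, adjusted p = 1.01e-04), but stood at -0.26 on the deposited scale. In OCI-AML3 it fell from 2454, 2438 and 2584 to 2322, 2078 and 1946 (log2 -0.24, SE 0.06, adjusted p = 0.00230), and on the deposited scale it stood at -0.40 with a wider error (SE 0.27, adjusted p = 0.420).

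MSI2, on chromosome 17 (57255851 to 57701581), rose most with AC220 among the 7 members tested. Normalised reads in the MV411 controls were 486.3, 504.9 and 430.8, and MI-503 libraries had 507.3, 510.5 and 516.0. AC220 libraries had 1012, 1014 and 1042, and those with both drugs 915.8, 866.8 and 904.9. Both AC220 groups lay far above the other 2. MSI2 rose 2.16-fold with AC220 (log2 1.11, SE 0.06, adjusted p = 7.92e-14) and 1.89-fold with the combination (log2 0.92, SE 0.06, adjusted p = 1.86e-12). With MI-503 alone the difference did not pass in MV411 (log2 0.11, 95% interval -0.02 to 0.24, adjusted p = 0.124), but did without DMSO replicate 2 (0.0467). Against AC220 alone the combination was lower (log2 -0.19, adjusted p = 0.0118), except without combination replicate 2 (0.0568). In MOLM13 the controls had 600.9, 568.1 and 617.8 reads, and MI-503 libraries 648.9, 660.2 and 656.4 (log2 0.14, adjusted p = 0.0294), while the deposited scale gave -0.39. That call was lost without DMSO replicate 1 or 2 (0.0548 and 0.133), without MI-503 replicate 2 or 3 (0.0639 and 0.0676) and with DESeq2 (0.105). In OCI-AML3 the groups overlapped, at 754.9, 781.5 and 842.0 against 889.2, 816.7 and 805.4 (log2 0.08, adjusted p = 0.248). The deposited scale gave -0.08 there (limma, adjusted p = 0.903).

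CPEB2, on chromosome 4 (15002481 to 15070151), showed the largest fall among the members tested with MI-503 in MV411 and MOLM13. In MV411 it went from 1798, 1670.2 and 1685 normalised reads in the controls to 573.4, 569.9 and 553.0 in MI-503 libraries, and libraries with both drugs had 788.3, 823.0 and 895.7. The 3 groups did not overlap, the combination lying between the others. The fall was 3.03-fold with MI-503 (log2 -1.60, SE 0.06, adjusted p = 7.63e-17) and 2.06-fold with the combination (log2 -1.04, SE 0.06, adjusted p = 2.87e-14). AC220 gave 1968, 1799 and 1863 reads, just above the controls (log2 0.13, adjusted p = 0.0457). This call was lost without DMSO replicate 2 or 3 (0.137 and 0.122), without AC220 replicate 1 or 3 (0.194 and 0.0743), without a filter (0.0528), without the trend (0.0624) and with TMM factors (0.0556). In MOLM13 CPEB2 fell 3.75-fold, from 1107, 1184 and 1104 to 310.9, 309.3 and 282.7 (log2 -1.91, SE 0.06, adjusted p = 3.83e-14). In OCI-AML3 it fell 1.59-fold, from 1413, 1363 and 1301 to 916.7, 808.4 and 837.5 (log2 -0.67, SE 0.05, adjusted p = 3.84e-07).

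CPEB4, on chromosome 5 (173888349 to 173961980), fell with MI-503 alone in MV411, while the combination did not pass against DMSO. Normalised reads in the controls were 951.6, 832.1 and 785.5, and MI-503 libraries had 511.3, 534.9 and 496.6. AC220 libraries had 788.8, 756.0 and 818.4, and those with both drugs 752.2, 826.1 and 821.8. The MI-503 libraries lay under the other 9, which overlapped among themselves. CPEB4 fell 1.66-fold with MI-503 (log2 -0.73, SE 0.07, adjusted p = 2.54e-09), while the combination was at -0.09 against DMSO (95% interval -0.24 to 0.05, adjusted p = 0.207) and AC220 at -0.12 (adjusted p = 0.126). The AC220 value passed without DMSO replicate 3 (0.0364). The MOLM13 controls had 368.7, 367.0 and 374.9 reads and MI-503 libraries 393.1, 404.4 and 430.4, which do not overlap (log2 0.14, adjusted p = 0.0595, and -0.39 on the deposited scale). There it passed without MI-503 replicate 1 (0.0380) and without the trend (0.0326). In OCI-AML3 it went from 787.3, 761.6 and 760.5 to 882.7, 836.5 and 806.4, a rise of 0.13 on this scale (adjusted p = 0.0385) and -0.031 on the deposited one. The rise was lost when any one of DMSO replicates 1 to 3 or MI-503 replicates 1 and 2 was left out (adjusted p = 0.0542 to 0.105), and with DESeq2 (0.0989).

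With AC220 in MV411, 5 of the 7 genes tested rose and 1 fell, against 74.9% of all genes changed (37.7% higher and 37.3% lower). For the combination, 2 rose and 4 fell, against 79.4% (39.3% higher and 40.1% lower). These comparisons and that of MI-503 share the same 3 DMSO libraries. Set against MI-503 alone, the combination raised 4 (MSI2, CPEB4, CPEB2 and MBNL3, by 0.81, 0.64, 0.56 and 0.24 on the log2 scale) and lowered IGF2BP1 and IGF2BP2, by -0.45 and -0.62, where 68.5% of all genes changed (34.9% higher and 33.6% lower). Set against AC220 alone it lowered 5, where 55.5% of all genes changed (27.4% higher and 28.1% lower). These were IGF2BP2 (-1.92), CPEB2 (-1.17), MBNL1 (-0.78), MBNL3 (-0.36) and MSI2 (-0.19). IGF2BP1 stood at -0.12 with an adjusted p of 0.0632, and passed without AC220 replicate 1 (0.0258) or combination replicate 3 (0.0296) and with equal totals (0.0108). CPEB4 stood at 0.02 (limma, adjusted p = 0.808).

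The interaction, the combination minus the sum of both single-drug changes, passed for 6 of 7 genes, against 42.5% of all genes. IGF2BP2 fell further than the sum, which was -0.76, by -0.89 (SE 0.06, adjusted p = 2.62e-11). For CPEB4 the sum was -0.85 and the combination -0.09, an interaction of 0.75 (SE 0.10, adjusted p = 1.06e-06). For CPEB2 the sum was -1.47 and the combination -1.04, an interaction of 0.43 (SE 0.08, adjusted p = 1.16e-04). MSI2 rose less than the sum of 1.22, by -0.30 (SE 0.09, adjusted p = 0.00742). MBNL3 had an interaction of -0.28 (adjusted p = 0.0251) that was lost without DMSO replicate 2, MI-503 replicate 1 or 2, AC220 replicate 3 or combination replicate 1 (0.0518 to 0.0919) and without the trend (0.0670). IGF2BP1 had -0.22 (adjusted p = 0.0210), lost without DMSO replicate 2, MI-503 replicate 2, or AC220 replicate 2 or 3 (0.0519 to 0.0643). MBNL1 had -0.10 (95% interval -0.25 to 0.04, adjusted p = 0.252), and -0.17 without DMSO replicate 1 (0.0348).

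**Figure D4:**
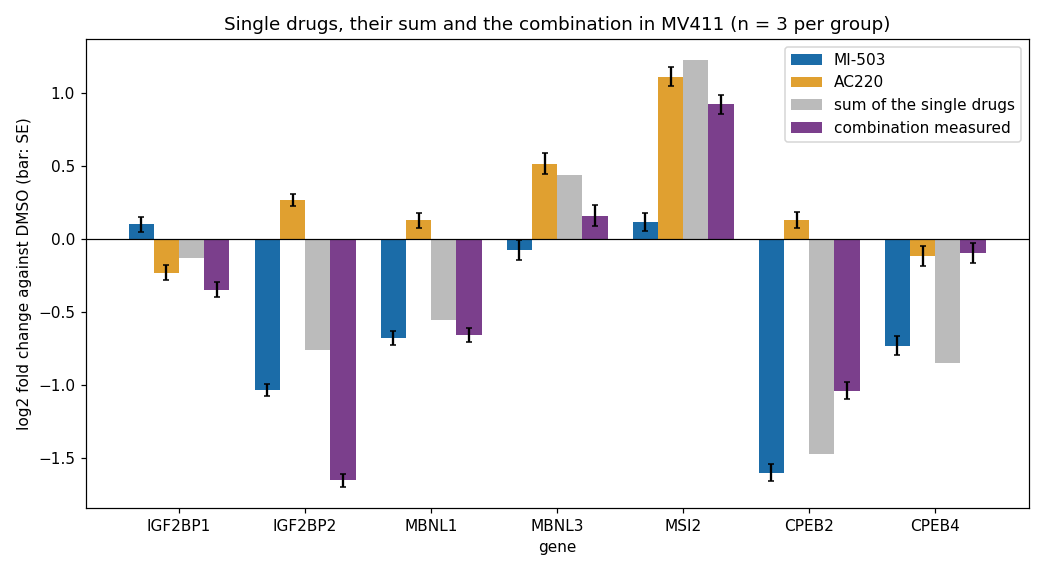
Log2 fold change against DMSO in MV411 (y axis) for MI-503, AC220, the sum of these 2 and the measured combination, for the 7 genes tested (x axis). Error bars are SE from limma with 3 libraries per group, and the sum has none. The combination lies under the sum for IGF2BP2 (-1.66 against -0.76) and above it for CPEB4 (-0.09 against -0.85) and CPEB2 (-1.04 against -1.47).

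The change with MI-503 was compared between lines for the 7 genes kept in all 3 tables. Between MV411 and MOLM13, 6 of 7 differed, against 56.6% of all genes, between MV411 and OCI-AML3 4 of 7, against 61.4%, and between MOLM13 and OCI-AML3 4 of 7, against 58%. The latter 2 counts are near the share of all genes. IGF2BP2 fell less in MOLM13 than in OCI-AML3 by 1.11 on the log2 scale (SE 0.05, adjusted p = 1.46e-17), and CPEB2 fell more there by -1.24 (SE 0.08, adjusted p = 3.07e-13). CPEB4 in MV411 stood -0.87 from MOLM13 and -0.86 from OCI-AML3 (adjusted p = 2.54e-09 and 2.85e-09). On the deposited scale the difference between MV411 and MOLM13 was -0.34 for CPEB4 (adjusted p = 0.131) and -0.04 for IGF2BP2 (adjusted p = 0.864), against -0.57 for IGF2BP2 on the scale used here. MSI2 did not pass in any pair, with values of -0.03, 0.03 and 0.06 and intervals within -0.19 to 0.23, and its 0.51 between MV411 and MOLM13 on the deposited scale (adjusted p = 0.0244) stands beside the median gene's 0.52 there. IGF2BP3 and MBNL2 could be compared only between MOLM13 and OCI-AML3, with genes kept in those 2 tables, where they differed by -0.34 (adjusted p = 1.05e-04) and -0.77 (adjusted p = 1.58e-06), against 62.9% of genes. Treatment lasted 3 days in MV411 and 4 days in the others.

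The genes most like each member were sought among 12080 others, by Pearson's r over 24 libraries of log2 change from the DMSO mean of the same line. The libraries fall into 8 groups, so r describes mostly group means. CPEB2 was most like REEP3 (r = 0.993), PBX3 (0.980) and UHRF2 (0.965), and IGF2BP2 most like UBXN8 (0.973), ARID2 (0.962) and MTO1 (0.961). MBNL1 was most like SATB1 (0.970), C6orf120 (0.958) and TRIP12 (0.957), and MSI2 most like RASAL2 (0.984), DST (0.981) and PRDM4 (0.979). For MBNL3 these were TOR1AIP1, CLEC2D and ZMYM4 (0.947, 0.942 and 0.941), for CPEB4 JAG1, ZNF791 and SWT1 (0.943, 0.940 and 0.938), and for IGF2BP1 UTP14A, LOC286190 and ZCCHC8 (0.930, 0.923 and 0.919).

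Other genes of the same processes were taken from lists. Their counts stand against 60.6%, 59.9% and 65.6% of all genes changed with MI-503 in MV411, MOLM13 and OCI-AML3, where 30.8%, 29.9% and 32.8% of all genes fell. Of 21 splicing regulators tested in MV411, 1 rose and 17 fell with MI-503 (median log2 -0.32, against -0.01 over all genes), among them PTBP3 (-0.92), a polypyrimidine tract binding protein, and TRA2B (-0.74). In MOLM13 3 rose and 11 fell of 22 (median -0.07), and in OCI-AML3 2 rose and 16 fell of 22 (median -0.17), and ESRP1, an epithelial splicing regulator, rose in both (1.18 and 1.30). With AC220, 2 of 21 splicing regulators rose and 15 fell (median -0.46), against 37.7% and 37.3% of all genes. Among 23 other RNA-binding proteins of mRNA stability and translation, 3 rose and 13 fell with MI-503 in MV411, 6 and 13 in MOLM13, and 4 and 19 in OCI-AML3 (medians -0.13, -0.08 and -0.18). ZFP36L1, which promotes decay of AU-rich mRNAs, fell in each line (-1.36, -0.60 and -0.57).

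Of 20 poly(A) tail genes, 12 rose and 4 fell with MI-503 in MV411, 7 and 9 in MOLM13, and 3 and 12 in OCI-AML3 (medians 0.15, -0.07 and -0.10). PAN3, a subunit of a poly(A) nuclease, fell in each line (-0.72, -0.52 and -0.34), and CNOT6L, a deadenylase of the CCR4-NOT complex, fell by 1.68 in MOLM13. Of 14 m6A writers, erasers and readers tested, 2 rose and 5 fell in MV411, 3 and 6 in MOLM13, and 3 and 6 in OCI-AML3 (medians -0.05, -0.03 and -0.02), where 60.6%, 59.9% and 65.6% of all genes changed. FTO, an m6A demethylase, rose in each line (0.70, 0.60 and 0.55). Of the let-7 processing genes, 3 rose and 3 fell of 10 in MV411, 2 and 5 of 11 in MOLM13, and 4 and 3 of 10 in OCI-AML3. AGO1, an Argonaute protein, rose in MV411 (0.94) and OCI-AML3 (0.38).

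Recovered reads per library numbered 23168887 to 26596469 in MV411, 23281330 to 27240357 in MOLM13 and 44364964 to 72994481 in OCI-AML3. MEIS1, a menin-MLL target, fell with MI-503 in each line (log2 -2.31, -1.65 and -2.62), as did HOXA9 (-1.88, -0.33 and -0.34). DUSP6, an ERK output gene, fell with AC220 (-5.26). With MI-503 it also fell in MV411 (-2.37) and OCI-AML3 (-0.35), and rose in MOLM13 (0.35). PIM1 fell with AC220 (-2.71) and with MI-503 in MV411 (-0.67). With MI-503 it rose in MOLM13 (0.57) and did not pass in OCI-AML3 (-0.02). The 8 myeloid markers were read in every group. In MV411 they summed to 2877 to 2922 RPM with DMSO, 8422 to 8759 with MI-503, 4712 to 4948 with AC220 and 9286 to 9470.0 with both drugs. Of these 8, 6 rose and 2 fell with MI-503 in MV411 (median log2 0.28), and 2 of the rises were at least 2-fold. With AC220, 5 rose and 1 fell (median 0.50), and with both drugs 6 rose and 1 fell (median 0.47). Without and with MI-503 they summed to 1326 to 1361 and 1834 to 1939 in MOLM13, and to 2597 to 2634 and 2325 to 2351 in OCI-AML3. Of the 8, 7 rose and 1 fell in MOLM13, and 2 rose and 5 fell in OCI-AML3. All 10 cycling-cell markers fell at least 2-fold with AC220, from 2926 to 2951 summed RPM with DMSO to 446.4 to 492.8, beside the rises of MSI2 and MBNL3. With both drugs all 10 also fell at least 2-fold, to 660.2 to 714.5. There MSI2 stood at 0.92 and MBNL3 at 0.16 on the log2 scale against DMSO. The monocyte-macrophage markers summed to 314.3 to 346.3 with DMSO and 534.8 to 542.1 with MI-503 in MV411 (6 of 8 tested rose), where FCN1 and CD163 were at 0 with DMSO and CD163 and VCAN with MI-503. With AC220 they summed to 748.3 to 786.7 in MV411 (3 rose and 5 fell of 8, CD163 and VCAN at 0). With both drugs the sum was 1075 to 1163 (7 rose and 0 fell of 8, VCAN at 0). In MOLM13 they went from 70.9 to 78.2 up to 162.6 to 174.3 (6 of 6 tested rose, FCN1 at 0 with DMSO). In OCI-AML3 they went from 1433 to 1464 down to 667.4 to 671.0 (4 rose and 7 fell of 11, none at 0), beside the lower IGF2BP2 and CPEB2. The part of these markers in the changes of the 10 genes was not tested. Of the 7 T and NK markers, CD3D, CD3E, CD3G, CD8A and CD2 were under 1 RPM in every group. The list's sum went with MI-503 from 35.4 to 35.9 up to 67.8 to 74.4 RPM in MV411, from 112.9 to 120.2 up to 187.6 to 198 in MOLM13, and from 183.5 to 191.7 to 184.7 to 196 in OCI-AML3. Of the 7 erythroid and megakaryocyte markers, HBA1, ALAS2, PF4 and GP9 were under 1 RPM in every group, and the sum went from 33.1 to 35.7 down to 8.88 to 10.2 in MV411, while it was under 11 RPM in the other lines. The 5 B cell markers went from 53.0 to 54.5 down to 35.1 to 39.6 in MOLM13, where MS4A1, CD79A and CD79B were under 1 RPM, and were at most 6.95 in the other lines. The 8 epithelial and fibroblast markers summed to at most 28.3 RPM. The part of these lists in the results was not tested either.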

How the data were processed

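PolyA RNA of 3 AML lines was read in 24 libraries, and 3 tables of 25680 genes were used. Per the labels' protocols, ERCC spike-in RNA was added to a fixed number of cells before extraction. Per the submitters' processing notes, values came from DESeq version 2 on hg38. The aligner, counter and annotation are not given in the sources used here. The deposited values are signal, whole reads divided by 1 factor per library (100% whole within 0.001), so reads were recovered. Genes sharing reads with near-identical copies or with an antisense partner cannot be told apart, since strand use is not stated. No column was left out (0 unused).

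The deposited MV411 factors equal median-of-ratios factors of the genes, and those of MOLM13 and OCI-AML3 do not. All tables were therefore brought to median-of-ratios factors, with the deposited scale as an alternative. Tests were two-sided and used limma 3.58.1 (R 4.3.3), with a mean-variance trend and a pseudocount of 1 before log2. A gene entered where 3 or more libraries reached 10, and p-values were adjusted by Benjamini-Hochberg over all such genes (threshold 0.05). Fold changes are on the log2(value + 1) scale. The 12 MV411 libraries shared 1 fit, and lines were compared over genes kept in all 3 tables. Scripts were tested on simulated data. Alternatives were edgeR 4.0.16, DESeq2 1.42.0, TMM, equal totals, pseudocounts of 0.5 and 8, a minimum of 50, no filter, no trend, a replicate block, only the 2 groups compared, a 2-fold rule and each library left out. A fit of MOLM13 and OCI-AML3 alone was added after seeing the data. Replicates of a group differed by more than counting error (chi-square per degree of freedom 1.59 to 9.41 over 24 pairs). Intervals on read ratios and the limit of 3 reads cover counting error only.

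The members and lists were chosen with earlier results of these data known. Every member tested in a comparison is given for it, whether it passed or not, and each list names up to 3 passing genes with the largest change. Sequences come from RefSeq GRCh38.p14 and GENCODE v29 (GRCh38).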

Additional observations from a re-analysis of the deposited data

Results flagged for a closer look

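The change with MI-503 differed between lines by the test of the difference itself (limma, adjusted p under 0.05) for 14 pairs of gene and lines. Between MV411 and MOLM13 the differences in log2 change were 0.49 for IGF2BP1, -0.57 for IGF2BP2, -0.18 for MBNL1, -0.35 for MBNL3, 0.31 for CPEB2 and -0.87 for CPEB4, a negative value meaning a larger fall or a smaller rise in MV411. The MBNL1 difference was lost without any of DMSO replicate 1 or MI-503 replicate 3 of MV411, or DMSO replicate 3 or MI-503 replicates 2 and 3 of MOLM13 (adjusted p = 0.0661 to 0.149), without the variance trend (0.0677) and with equal totals (0.0541).

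Between MV411 and OCI-AML3 they were 0.66 for IGF2BP1, 0.54 for IGF2BP2, -0.93 for CPEB2 and -0.86 for CPEB4. MBNL3, at 0.16, passed there only without MV411 DMSO replicate 1 (0.22, adjusted p = 0.0443) or OCI-AML3 MI-503 replicate 1 (0.23, adjusted p = 0.0304). MBNL1 did not pass, at -0.09 (limma, adjusted p = 0.263).

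Between MOLM13 and OCI-AML3 they were 0.17 for IGF2BP1, 1.11 for IGF2BP2, 0.51 for MBNL3 and -1.24 for CPEB2. The IGF2BP1 difference was lost without any of MOLM13 DMSO replicate 3, MOLM13 MI-503 replicate 2, OCI-AML3 DMSO replicates 2 and 3 or OCI-AML3 MI-503 replicate 1 (adjusted p = 0.0521 to 0.103), and with equal totals (0.11, adjusted p = 0.159). The MBNL3 difference was 0.14 on the deposited scale (adjusted p = 0.577). MBNL1 and CPEB4 did not pass, at 0.09 and 0.02 (limma, adjusted p = 0.296 and 0.893). On the scale relative to the median gene, MBNL3 rose in MOLM13 (0.27) and fell in OCI-AML3 (-0.24), and CPEB4 fell in MV411 (-0.73) and rose in OCI-AML3 (0.13, adjusted p = 0.0385 by limma).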

How the results depend on the processing

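The changes of the 10 genes were recomputed under 13 alternatives. Over 81 results and 933 values, 899 kept their side of the threshold, 23 lost and 3 gained the call, and 8 reversed with a call under either setting. A value that changed sign with no call under either setting counts among the 899. An example is MSI2 with MI-503 in OCI-AML3, at 0.08 and at -0.08 on the deposited scale. All 8 reversals came from the deposited scale, on which the values were -0.26, -0.39 and -0.39 for MBNL3, MSI2 and CPEB4 with MI-503 in MOLM13 and -0.031 for CPEB4 in OCI-AML3. For the differences between lines they were 0.35 (MBNL1), 0.18 (MBNL3) and 0.51 (MSI2) for MV411 minus MOLM13 and -0.20 (IGF2BP1) for MOLM13 minus OCI-AML3. That scale subtracts no median shift, and on it the median of all genes moved by -0.54 with MI-503 in MOLM13. Whether this shift is a change of RNA per cell was not tested. It called 3 members with MI-503 in OCI-AML3 (8 otherwise), where it called 1676 genes against 10294, 3 for MV411 minus MOLM13 (6 otherwise) and 2 for MOLM13 minus OCI-AML3 (4 otherwise). For MI-503 in MOLM13 it called 11173 genes, 903 higher and 10270 lower, against 4006 higher and 4009 lower. For MV411 minus OCI-AML3 it called 3826 genes against 7760.

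Asking for 2-fold in addition, by construction stricter, left 2 members called for MI-503 in MV411, 1 for AC220, 2 for the combination, 0 for the combination against MI-503, 2 against AC220 and 0 for the interaction. It left 1 in MOLM13, 1 in OCI-AML3, 0 for MV411 minus MOLM13, 0 for MV411 minus OCI-AML3 and 2 for MOLM13 minus OCI-AML3. For the comparisons with a 0, members called by limma without the fold rule, at an unadjusted p under 0.05, and by edgeR and DESeq2 numbered 6, 6 and 6 (combination against MI-503, interaction, MV411 minus MOLM13) and 4 (MV411 minus OCI-AML3) each time.

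With each library left out in turn, members called ranged from 4 to 5 for MI-503 in MV411, 4 to 6 for AC220, 5 to 6 for the combination, 6 to 6 against MI-503, 4 to 6 against AC220 and 4 to 7 for the interaction. The ranges were 6 to 8 in MOLM13, 7 to 8 in OCI-AML3, 5 to 6 for MV411 minus MOLM13, 4 to 5 for MV411 minus OCI-AML3 and 3 to 4 for MOLM13 minus OCI-AML3.

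Replicate numbers did not pair the samples. Correlations of same-numbered deviations had medians of -0.009, 0.051 and -0.043 in MV411, MOLM13 and OCI-AML3, and 5 of 12, 4 of 6 and 2 of 6 libraries correlated best with their own number. A replicate block changed 1 of 81 calls, CPEB4 with MI-503 in OCI-AML3 (0.13, adjusted p = 0.0542). With median-of-ratios factors over 24 libraries in place of RPM, the order of group levels kept its highest and lowest group for 6 of 7 genes, MBNL1 being the exception. IGF2BP3, MBNL2 and LIN28B in MV411 and LIN28B in the other lines had too few reads for the test. In MV411, IGF2BP3 had 54 and MBNL2 1 of 307184184 reads, against 7906 and 1293 of 153093409 reads in MOLM13.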

Other observations

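Another 2 lists bear on the products these proteins bind and are given as counts, without a test of the list. Over all genes, 60.6%, 59.9% and 65.6% changed with MI-503 in MV411, MOLM13 and OCI-AML3, with 30.8%, 29.9% and 32.8% lower, and 37.3% fell with AC220. Of 10 tested mRNAs described as bound by IGF2BP proteins, 0 rose and 9 fell with MI-503 in MV411 (median log2 -0.85, against -0.01 over all genes), among them FSCN1, an actin bundling protein, at -2.57, HOXA9 at -1.88 and BCL2, an inhibitor of cell death, at -1.08. In MOLM13 2 rose and 4 fell of 10 (median -0.11), with HMGA2 at -1.65, CDK6 at -0.93 and CD44 at 0.71. In OCI-AML3 4 rose and 6 fell of 12 (median -0.17), with BCL2 at -1.03 and FSCN1 at 1.96. HOXA9 is also a target of menin and MLL, so its place in this list does not separate the 2. This was not examined for the other genes of the list, and the part of IGF2BP levels in these changes was not tested.

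Of the let-7 target genes, 1 rose and 7 fell of 9 with MI-503 in MV411 (median -0.42), 0 rose and 7 fell of 10 in MOLM13 (median -0.22), and 4 rose and 3 fell of 9 in OCI-AML3 (median -0.01). With AC220 in MV411 all 9 fell (median -0.37), led by CDC25A (-2.86), a phosphatase of the cell cycle, beside the 10 of 10 cycling-cell markers that fell, whose part was not tested. NRAS (-0.64) was among the 3 with the largest change for MI-503 in MV411.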
